A study of Mus musculus with 4 samples.

Results

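A set of 49 non-Hox developmental homeobox genes was examined in chromatin immunoprecipitation sequencing (ChIP-seq) of mouse embryonic stem cell (ESC)-derived blood progenitors. The set holds listed members of the Pax, Lhx, Nkx, Dlx, Otx, Emx, Pitx, Irx and Msx families, Six2, Six3, Six4, Six6 and goosecoid (Gsc), and all 49 were found by symbol among the 21938 protein-coding genes of the GENCODE vM21 annotation of mm10. The rule for choosing them uses names and no measured value, though they were proposed with results of these data known. The study provided 4 libraries from floating haematopoietic progenitors obtained after 2 days of in vitro differentiation, all from ESCs with the genotype Tet-on dominant-negative FOS, an inducible peptide (dnFOS) that blocks AP-1 (FOS/JUN) from binding DNA. The Tet-on switch is turned on by Doxycycline (DOX). RUNX1, a master transcription factor of blood formation, was precipitated in 1 library labelled +DOX (treatment Doxycycline) and 1 labelled -DOX (treatment None). The histone mark H3K27me3 was named as the antibody of 1 library titled untr and 1 titled DOX.

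Several labels went against each other. The paper's methods give 2 days of differentiation, and a figure legend gives a later day for the RUNX1 cells. The run name inside each RUNX1 peak list gives the treatment opposite to its label, so the libraries are called by their labels, and which gene belongs to which RUNX1 list turns round if they were exchanged. For H3K27me3 the title and the treatment entry contradict each other (the library titled untr carries the treatment Doxycycline, the one titled DOX carries None), so these libraries are told apart by title and assigned to no condition. The protocol text of the H3K27me3 libraries names an antibody against RUNX1, although their antibody entry reads H3K27me3. There was 1 library for each antibody and label, so no difference between libraries has a replicate error or a test, and the depth is unknown. The lists used held 6356 peaks (H3K27me3, titled untr), 7233 peaks (H3K27me3, titled DOX), 18389 peaks (RUNX1, labelled -DOX) and 21831 peaks (RUNX1, labelled +DOX).

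Homeobox genes encode transcription factors with a DNA-binding homeodomain that set the identity of tissues in the embryo. Most of the genes studied here direct brain, eye, kidney, limb, heart, gut or skeletal development and are not used to form blood. In cells that do not use them, such genes are classic targets of Polycomb repressive complex 2, which places the H3K27me3 mark on CpG-rich chromatin around the start of silent developmental genes. RUNX1 binds the sequence TGTGGT and acts at enhancers and promoters of blood genes.

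A gene was called marked or bound when the summit of a peak, its highest point, lay in the gene body or within 5 kb of it. Each peak has a fold enrichment over the local background of its own library, and a -log10 q, from which the percentile of the peak within its own list was taken (a percentile of 50 is the middle of the list). An H3K27me3 peak lay at 45 of the 49 genes (91.8%) in the list titled untr and at 46 (93.9%) in the list titled DOX. Of all protein-coding genes, 16.1% and 16.7% had one. Over both lists, 48 of the 49 had a peak in either (98.0%, against 19.6% of all protein-coding genes) and 43 in both (87.8%, against 13.2%). RUNX1 went the other way. Its peaks lay at 11 of the 49 genes (22.4%) in the library labelled -DOX and at 14 (28.6%) in the library labelled +DOX, where 53.5% and 57.1% of all protein-coding genes had one. Either RUNX1 list had a peak at 19 of the genes (38.8%, against 60.5%), and both lists at 6 (12.2%, against 50.1%). The bulk libraries cannot tell a weak peak in all cells from a strong peak in a few.

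**Figure D1:**
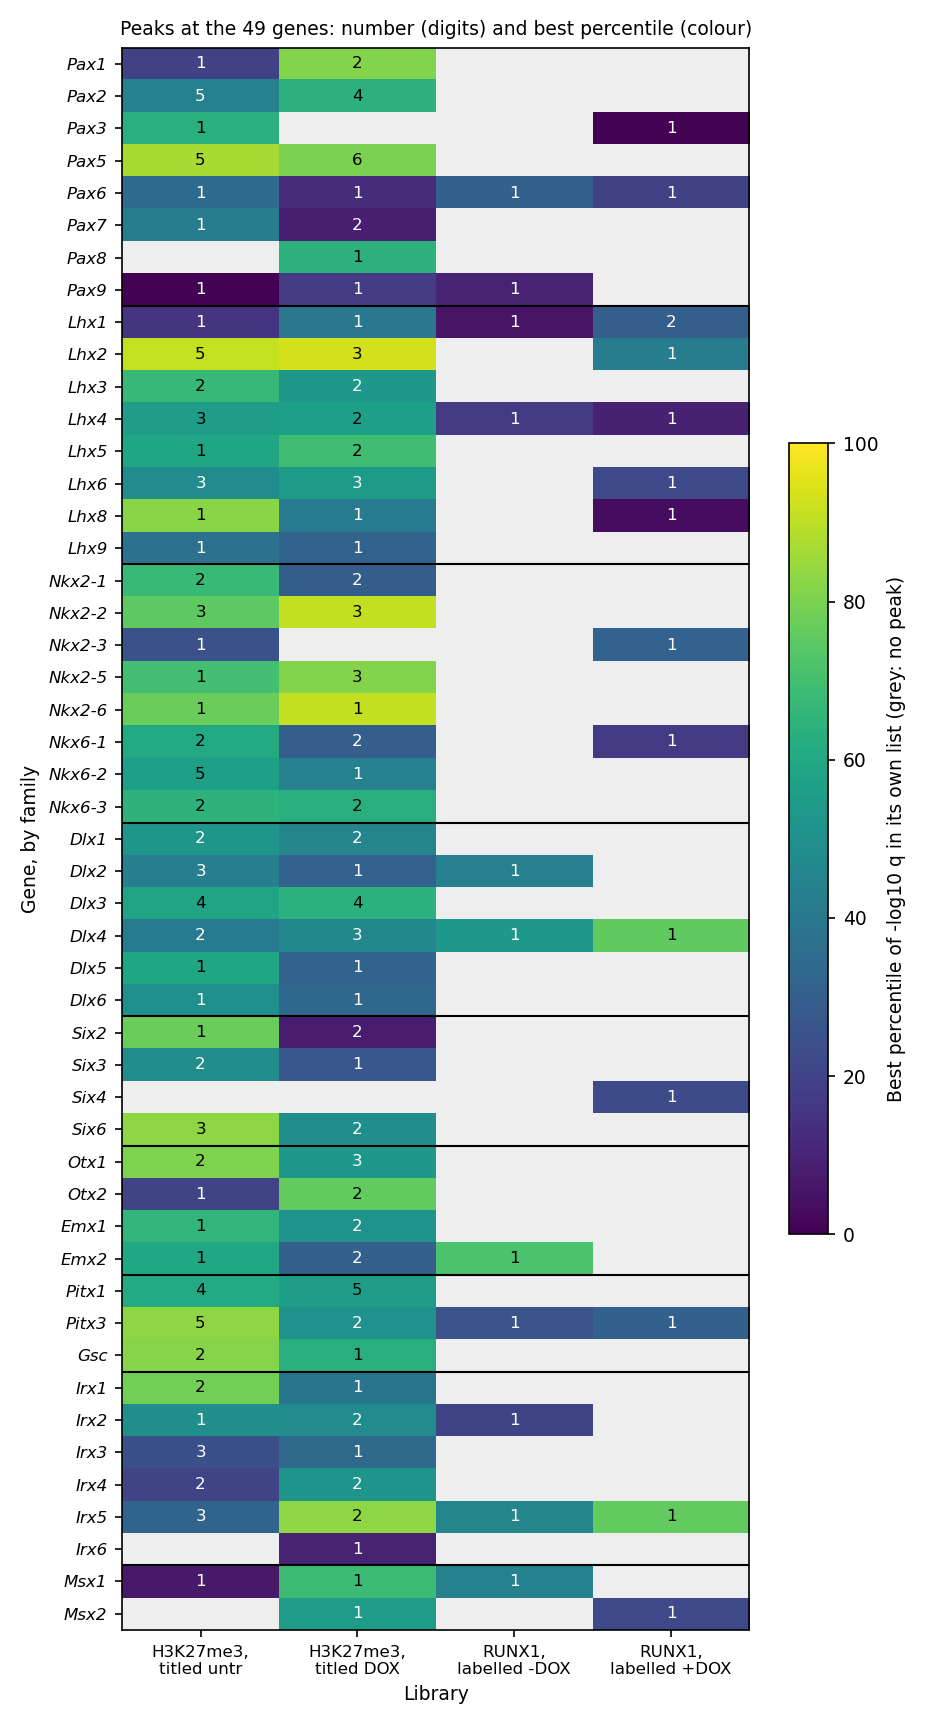
Peaks at each of the 49 genes (rows, ordered by family) in the 4 libraries (columns). The digit is the number of peak summits in the gene body or within 5 kb, and the colour is the percentile of the strongest one by -log10 q in its own list, with grey for no peak. The H3K27me3 columns are filled for 45 and 46 genes, the RUNX1 columns for 11 and 14.

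Some stretches of the reference genome show what lay under these peaks. They were read from the mm10 assembly (RefSeq, GRCm38.p6) at the peak summits and are written 5′ to 3′ on the strand of the gene. The first pair comes from RUNX1 peaks that overlapped an H3K27me3 peak, with any TGTGGT or its reverse complement in capitals. The Dlx4 stretch (chr11:95146264-95146387, minus strand, 62.1% GC) ends at the base before the start of the gene record and holds 1 TGTGGT. It lies in the part of the RUNX1 peak that the H3K27me3 peak, chr11:95146064-95146137, did not reach. The Pitx3 stretch (chr19:46136021-46136170, minus strand, 67.3% GC) lies in a coding exon, mostly under the H3K27me3 peaks of both lists, and holds 0.
Dlx4: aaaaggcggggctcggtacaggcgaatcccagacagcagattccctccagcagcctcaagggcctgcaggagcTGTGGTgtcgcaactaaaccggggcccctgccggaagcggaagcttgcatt
Pitx3: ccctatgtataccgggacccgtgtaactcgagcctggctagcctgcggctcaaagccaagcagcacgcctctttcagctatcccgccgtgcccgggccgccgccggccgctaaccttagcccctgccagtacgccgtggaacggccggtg

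The second pair comes from strong H3K27me3 peaks outside UTRs, with each CG dinucleotide in capitals. The Nkx2-2 stretch (chr2:147194841-147195041, minus strand) lies upstream of the gene, holds 22 CG dinucleotides and has an observed over expected CpG ratio of 0.823. The Six6 stretch (chr12:72945535-72945735, plus strand) lies downstream of the gene, with 30 CG dinucleotides and a ratio of 0.993.
Nkx2-2: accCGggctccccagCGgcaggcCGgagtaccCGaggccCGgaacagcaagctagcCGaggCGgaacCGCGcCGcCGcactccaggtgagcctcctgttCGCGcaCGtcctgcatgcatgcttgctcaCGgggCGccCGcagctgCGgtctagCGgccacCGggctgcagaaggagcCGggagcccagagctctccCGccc
Six6: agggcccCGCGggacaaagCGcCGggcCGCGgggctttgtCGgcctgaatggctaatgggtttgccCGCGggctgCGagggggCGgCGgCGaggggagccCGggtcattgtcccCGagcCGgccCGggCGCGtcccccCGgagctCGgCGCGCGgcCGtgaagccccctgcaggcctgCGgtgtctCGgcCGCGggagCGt

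Family by family, H3K27me3 calls were near complete. The Lhx genes, LIM-homeodomain factors of forebrain, pituitary and motor neurons, were marked at 8 of 8 in both lists. The Dlx genes of the pharyngeal arches and forebrain interneurons were marked at 6 of 6 in both, the forebrain genes Otx1, Otx2, Emx1 and Emx2 at 4 of 4 in both, and Pitx1, Pitx3 and Gsc at 3 of 3 in both. The Pax genes, whose members act in eye, kidney, muscle, vertebrae and B cells, were marked at 7 of 8 in each list. The Nkx genes of ventral neural tube, heart, thyroid and gut were marked at 8 of 8 (titled untr) and 7 of 8 (titled DOX). The Irx genes, which pattern the neural plate and heart, were marked at 5 of 6 and 6 of 6. Of Six2, Six3, Six4 and Six6, genes of eye and kidney, 3 of 4 were marked in each list, and of the limb and craniofacial genes Msx1 and Msx2 1 of 2 and 2 of 2. RUNX1 peaks in either list lay at 5 of 8 Lhx genes and at 2 of 8 Nkx genes, with 3 of 8 Pax, 2 of 6 Dlx, 1 of 4 among Six2 to Six6 (Six4), 1 of 4 Otx and Emx, 1 of 3 Pitx and Gsc, 2 of 6 Irx and 2 of 2 Msx genes. Of all protein-coding genes 60.5% had one, so the Lhx and Msx counts were not below that share. These family counts are small and were not tested against each other.

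Six4 was the gene with no H3K27me3 peak in either list. It encodes a homeodomain factor of muscle and kidney precursors. A RUNX1 peak lay in its coding exon, 469 bp after a start, in the library labelled +DOX (fold 4.42, percentile 23.2), and none was listed in the library labelled -DOX.

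Another 5 genes were marked in 1 of the H3K27me3 lists. Pax3, a factor of neural crest and muscle precursors, had an intronic peak in the list titled untr (fold 5.72, percentile 63.6), and the nearest summit in the list titled DOX was 19548 bp from the gene. Pax8, needed for the thyroid, had a peak in the list titled DOX (fold 5.49, percentile 64.4) in an exon of a noncoding transcript, 712 bp after a start and inside the overlapping gene Gm13415. Msx2 had a peak in the list titled DOX (fold 5.22, percentile 54.7) near the edge of its window, 10493 bp past its start. The remaining pair was Nkx2-3 (titled untr, percentile 24.7) and Irx6 (titled DOX, percentile 9.43). Each of the 5 thus rested on a single peak.

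The most H3K27me3 summits lay at Pax5, Pax2 and Pitx1. Pax5, which fixes the identity of B cells and is the Pax gene with a known role in blood, had 5 summits in the list titled untr and 6 in the list titled DOX. Most fell into 2 places, around the alternative start inside the gene (fold up to 6.33, percentile 87.1, titled untr) and in an intron at -18711 bp from another annotated start (fold up to 6.46, percentile 79.7, titled DOX), with further upstream summits in the list titled DOX. The summits around that alternative start also lay in the overlapping gene 5730488B01Rik, and most of those in the intron lay in Gm12462. These peaks cannot be given to either gene. No RUNX1 peak lay at Pax5 in either list. Pax2, a gene of kidney and midbrain development, had 5 and 4 summits, at its start and in the last part of the gene 75890 to 76769 bp from the nearest start, with a best fold of 3.91 and 4.65. Pitx1, which specifies the hindlimb, had 4 and 5 summits with a best fold of 4.43 and 4.21. Most Pitx1 summits also lay in the overlapping gene Gm47071, and some Pax2 summits in 1700039E22Rik. Pax5 and Pax2 have long windows, while the window of Pitx1 is 21.1 kb.

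The highest folds in the list titled untr belonged to Pitx3 (6.52), Nkx6-3 (6.44) and Lhx2 (6.36), and in the list titled DOX to Lhx2 (7.30), Nkx2-6 (6.86) and Pax5 (6.46). Lhx2, a selector gene of the forebrain and eye, stood high in both. Its strongest peak lay over a UTR at the start of the gene in both lists, at chr2:38339264-38339948 with a -log10 q of 19.7 and at chr2:38339476-38339917 with a -log10 q of 21.0, which are the percentiles 91.2 and 93.3. Nkx2-6, a gene of the pharynx and heart outflow tract, had 1 peak in each list, over the same coding exon 3362 and 3373 bp from its start (fold 5.57 and percentile 77.4 in the list titled untr, fold 6.86 and percentile 91.0 in the list titled DOX). Nkx2-2, which sets ventral neural tube and beta cell identity, had 3 summits in each list, with the strongest just upstream of its start (fold 5.03 and 6.31, percentiles 75.1 and 90.7). All of its summits also lay in the antisense gene Nkx2-2os, and ChIP peaks cannot be given to either gene of such a pair. Pitx3, a lens and midbrain dopamine neuron gene, had a coding exon peak with fold 6.52 (percentile 83.4) in the list titled untr and fold 4.50 (percentile 50.7) in the list titled DOX, where a UTR peak at its start had fold 4.61 (percentile 34.2). Nkx6-3, a gut gene, reached 6.44 and 5.76 upstream of its start, inside the neighbouring gene Ank1.

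H3K27me3 peaks were frequent at the 49 genes, but most did not rank high in their lists. Fold sets a peak against its surroundings within its own library, and no input control is named. A low fold or percentile therefore cannot be read as a weak mark. Over the 49 genes there were 96 summits in the list titled untr and 91 in the list titled DOX, or 63.2 and 60.0 per Mb of gene window, against 4.32 and 4.54 per Mb over all protein-coding windows. Their median fold was 4.06 and 3.96, below the list medians of 5.19 and 4.88, and the median percentile of these peaks was 41.9 and 38.9. Taking the strongest peak per marked gene, the median percentile was 58.5 and 51.1, against 60.8 in both lists over all marked protein-coding genes. A percentile of 90 or more was reached by Lhx2 in the list titled untr and by Lhx2, Nkx2-6 and Nkx2-2 in the list titled DOX. These are 1 of 45 and 3 of 46 marked genes, against 312 of 3529 and 349 of 3658 over all marked protein-coding genes. Among marked genes, 25 of 45 (55.6%) and 28 of 46 (60.9%) had 2 or more summits, against 44.2% and 43.8% of all marked protein-coding genes. The peaks were short for a mark that usually spreads over kilobases, with median widths of 180 and 124 bp at the 49 genes and 180 and 122 bp in the lists. The lists hold narrow peaks, so neighbouring entries may belong to a wider marked stretch, which was not tested. At Nkx6-2, for example, 5 entries of the list titled untr lay within 1.58 kb. Width and number of summits thus describe the calls as well as the mark.

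Over the whole lists, H3K27me3 peaks that overlapped a RUNX1 peak had higher folds than the rest, and few of them lay at the 49 genes. In the list titled untr, the 1625 H3K27me3 peaks that overlapped a RUNX1 peak had a median fold of 6.19 and a highest fold of 70.3, and the 4731 others a median fold of 4.96. In the list titled DOX the medians were 6.12 (1770 peaks) and 4.77 (5463 peaks). Such overlap was found for 6 of the 96 and 5 of the 91 summits at the 49 genes (6.25% and 5.49%), against 25.6% and 24.5% of the lists. At the 49 genes these few had a median fold of 4.79 (titled untr) and 3.62 (titled DOX), and the others 4.06 and 3.98. With overlapping peaks left out, 42 and 45 of the 49 genes were still marked, and 13.2% and 14.0% of all protein-coding genes. The folds of 4.06 and 3.98 are below the 4.96 and 4.77 over all peaks without overlap.

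The H3K27me3 lists placed the mark alike at most genes, and the order of the genes by strength was less alike. Of the 43 genes marked in both, 35 had overlapping peaks, and the closest summits of the lists were a median of 59 bp apart. They were within 500 bp of each other at 37 of the 43. The widest gaps were at Msx1 (9363 bp), Pax9 (5542 bp), Six3 (5244 bp) and Lhx1 (4805 bp). At the level of peaks, 57.3% of the summits at the 49 genes in the list titled untr and 62.6% in the list titled DOX belonged to a peak that overlapped one of the other list, near the 59.9% and 57.1% of the whole lists. Between the best percentiles of a gene in the lists, the Spearman rho was 0.199 over the 43 genes, and 0.466 when the best fold was used in place of the percentile. For the percentile it was 0.621 over the 2889 protein-coding genes marked in both. These are descriptions over genes of 1 pair of libraries. Six2 stood at percentile 77.2 (titled untr) and 8.18 (titled DOX), Msx1 at 7.03 and 68.5, Pax1 at 19.9 and 81.6, Otx2 at 20.6 and 75.8, and Irx5 at 32.2 and 83.1. These genes were picked for their gap after the values were seen, and with 1 library each the gaps have no error.

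**Figure D2:**
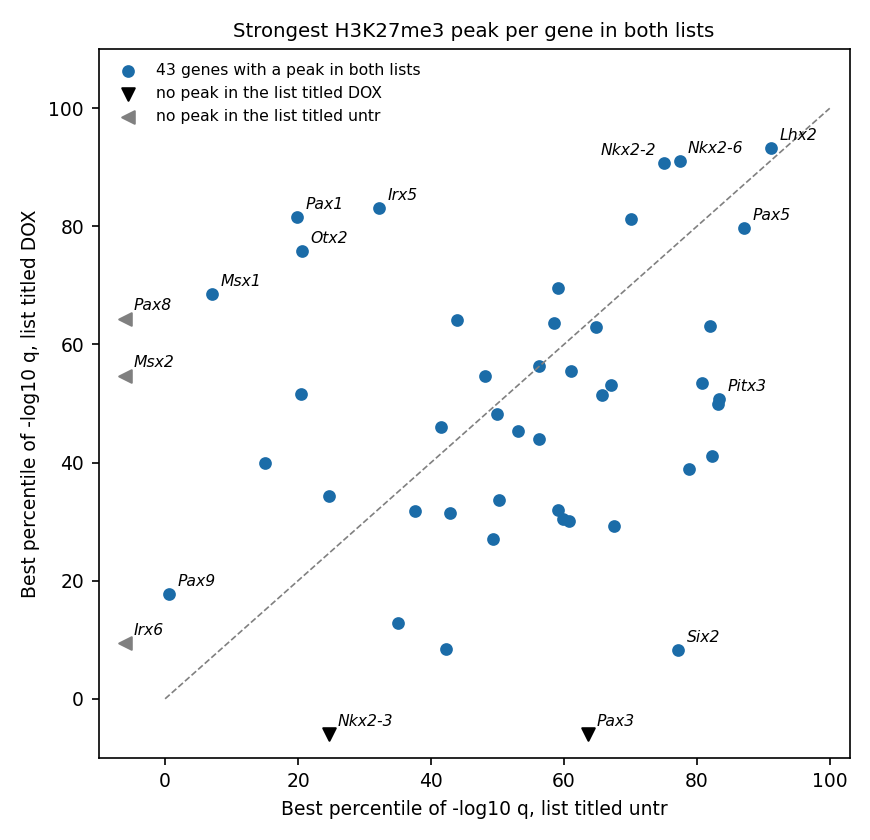
The percentile of the strongest H3K27me3 peak of each gene in the list titled untr (horizontal) and in the list titled DOX (vertical). Dots are the 43 genes with a peak in both lists, triangles on the margins are the 5 with a peak in 1 list, and the dashed line marks equal percentiles. Lhx2 stands high in both lists (91.2 and 93.3), and the points scatter widely about the line.

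Summits lay near starts in shares close to or somewhat above those of all protein-coding genes. Of those at the 49 genes, 66.7% (titled untr) and 69.2% (titled DOX) lay within 1500 bp of an annotated transcription start of the gene. Over all protein-coding genes the shares were 65.6% and 61.4%. The median distance was 548 and 563 bp, against 603 and 711 bp. These shares take the nearest of all annotated starts of a gene. With the start of the gene record alone they were 45.8% and 48.4% at the 49 genes. Of 96 summits in the list titled untr, 30 lay in introns, 27 in coding exons, 23 in UTRs, 9 upstream and 7 downstream. Of 91 in the list titled DOX, 25 lay in introns, 18 in coding exons, 23 in UTRs, 16 upstream, 7 downstream and 2 in noncoding exons. At 39 of the 49 genes a summit of either H3K27me3 list lay within 1500 bp of a start (79.6%, against 13.4% of all protein-coding genes). The others, besides Six4, were Lhx5, Msx1, Msx2, Nkx2-3, Nkx2-5, Nkx2-6, Nkx6-3, Pax3 and Six3. Their summits lay further into the gene or beyond either end of it, as with Six3, which had 1 at -4578 bp from its start in the list titled untr. No summit at the 49 genes belonged to a peak with over 50% of its bases in soft-masked repeats, against 13.6% and 18.1% of the H3K27me3 lists.

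**Figure D3:**
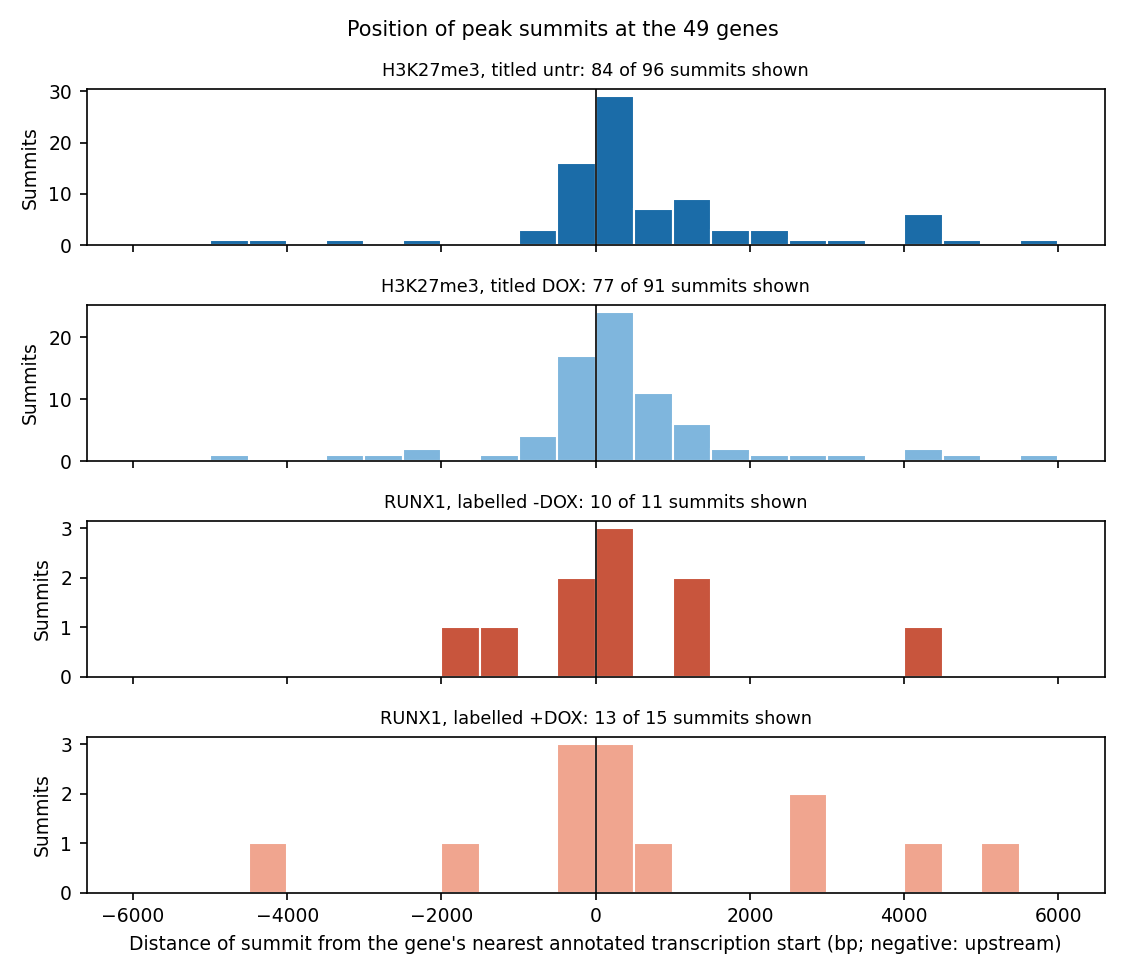
Number of peak summits at the 49 genes by distance from the nearest annotated transcription start of the gene, in bins of 500 bp, for each library. Negative distances are upstream. Within the 6000 bp shown on each side are 84 of 96, 77 of 91, 10 of 11 and 13 of 15 summits. The H3K27me3 summits pile up in the bins on either side of the start.

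The genes were rich in CpG at their starts. In the 1000 bp centred on the start of the gene record the median ratio of observed over expected CpG was 0.669, and 40 of the 49 genes (81.6%) reached 0.6. Over all protein-coding genes the median was 0.553 and 45.9% reached 0.6. The median was 0.647 for the 4298 genes with an H3K27me3 peak in either list and 0.493 for the 17640 without. The lowest value belonged to Lhx4 (0.0885), and the highest to Nkx6-2 (0.981). In the 200 bp at the H3K27me3 summits the median ratio was 0.807 and 0.803 at the 49 genes, against 0.722 and 0.646 over the lists. CpG content and window length both move with the calls, so the background was also taken over genes weighted to the window lengths and CpG class of the 49. The H3K27me3 shares were then 18.5% and 18.1%, and the RUNX1 shares 70.5% (labelled -DOX) and 74.5% (labelled +DOX).

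**Figure D4:**
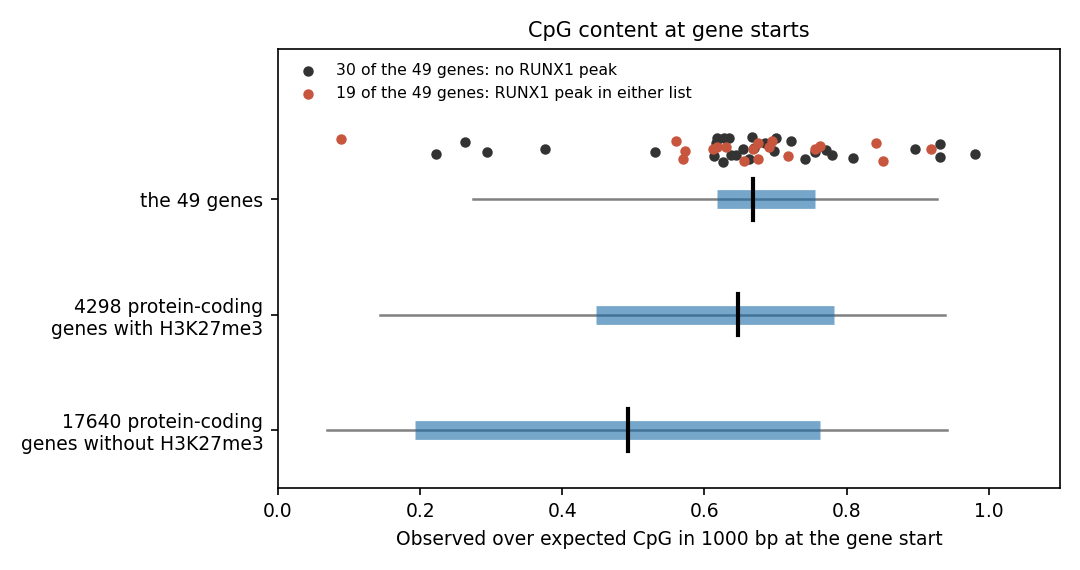
Observed over expected CpG in the 1000 bp at gene starts. Dots are single genes of the 49, coloured by RUNX1 peak, with vertical jitter. Black marks are medians, blue bars run from the lower to the upper quartile, and grey lines from the 5th to the 95th percentile. The median of the 49 genes (0.669) lies by that of all genes with H3K27me3 (0.647) and above that of genes without (0.493).

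RUNX1 peaks were also counted by CpG content. Among protein-coding genes with a CpG ratio of at least 0.6 and no H3K27me3, 93.8% had a RUNX1 peak in either list, and among the 2507 such genes with H3K27me3, 73.9%. Of all 49 genes, of which 40 reached this CpG ratio, 38.8% had one, so the sets are not alike. Those with a RUNX1 peak had a median CpG ratio of 0.676 and a median window of 22.6 kb, and those without had 0.665 and 17.4 kb. Over all protein-coding genes, whatever their CpG content, 67.8% of those with H3K27me3 and 58.7% of those without had a RUNX1 peak, with median windows of 41.8 and 25.6 kb. The part of CpG content and window length in the share at the 49 genes was not tested.

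Most RUNX1 peaks at the 49 genes ranked low in their lists, which cannot be read as weak binding. Their median percentile was 30.5 (11 peaks, labelled -DOX) and 21.9 (15 peaks, labelled +DOX), and 0 reached a percentile of 90. Of all protein-coding genes with a RUNX1 peak, 1652 of 11733 (labelled -DOX) and 1924 of 12533 (labelled +DOX) reached it. The highest percentile at the 49 genes was at Irx5, a gene of heart and retina. Its summits lay at -1638 and -1762 bp from the start and inside the noncoding gene Crnde. It had fold 4.84 (percentile 45.6) in the library labelled -DOX and fold 7.02 (percentile 75.8) in the library labelled +DOX. Dlx4, a Dlx gene used in the placenta, had a peak at its start, inside the antisense gene Dlx4os, with fold 5.59 (percentile 53.2) and fold 7.57 (percentile 75.5). The TGTGGT printed in capitals above lies under both peaks. It is whole within the 200 bp centred on the summit in the library labelled +DOX only. The lists differ in length and have 1 library each, so no direction between them is drawn from these values.

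Emx2, a gene of cortex and urogenital tract, had the strongest peak that was in 1 RUNX1 list, with fold 7.0 (percentile 71.6) in the library labelled -DOX, beyond the end of the gene and 8819 bp from the start of the gene record. Msx1 (percentile 43.8, at -1302 bp from its start) and Dlx2 (percentile 43.6, in a UTR) also had a peak in the library labelled -DOX and none listed in the other. Lhx2 (percentile 41.8) and Nkx2-3 (percentile 31.3, in a coding exon) had one in the library labelled +DOX. At Pitx3 the peak was in the coding exon printed above in the library labelled -DOX (percentile 25.4) and at -4369 bp from the start, inside Gbf1, in the library labelled +DOX (percentile 30.9). The remaining genes with RUNX1 peaks were Pax6, Lhx1 and Lhx4 in both lists, Pax9 and Irx2 in the library labelled -DOX, and Pax3, Lhx6, Lhx8, Nkx6-1, Six4 and Msx2 in the library labelled +DOX, at percentiles from 0.742 (Pax3) to 30.5 (Pax6).

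Of the RUNX1 peaks at these genes, 5 of 11 (45.5%) and 6 of 15 (40.0%) overlapped a peak of the other RUNX1 list, against 80.0% and 66.8% of all RUNX1 peaks. The motif TGTGGT, looked for in either orientation within 200 bp centred on the summit, was at 0 of 11 peaks in the library labelled -DOX and at 2 of 15 in the library labelled +DOX (Pax3 and Dlx4). It was at 26.3% and 28.6% of all RUNX1 peaks. A match is a run of letters and not a proven site, and its absence says nothing about binding by other sequences.

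Both kinds of peak, in either list of each, were found at 18 of the 49 genes (36.7%, against 13.3% of all protein-coding genes), which are the RUNX1 genes above without Six4. Among the genes with H3K27me3, 18 of 48 had RUNX1 peaks, against 67.8% of such protein-coding genes. With a -log10 q of at least 5 in all lists, the share of the 49 with both kinds was 16.3%, against 8.74%. With at least 10 it was 1 gene (2.04%), against 2.89%. Among the 5000 strongest peaks of each list it was 0 of 49, against 3.89%. That cut leaves out most of each RUNX1 list (18389 and 21831 peaks) and a smaller part of each H3K27me3 list (6356 and 7233 peaks). The peaks themselves overlapped at 8 of the 18, namely Dlx2, Dlx4, Lhx2, Lhx4, Lhx8, Pax6, Pax9 and Pitx3. Among all protein-coding genes with both kinds, they overlapped at 1257 of 2916 (43.1%), so the share among these genes was near that of genes in general. At Lhx2 the RUNX1 peak of the library labelled +DOX lay within the strong H3K27me3 peak at its start.

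Other gene lists were set beside the 49 as a reference. In either list, 19.6% of all protein-coding genes had H3K27me3 peaks and 60.5% had RUNX1 peaks. Of 16 further members of the same families, 14 had H3K27me3 peaks in either list, the exceptions being Pax4 and Crx, which had no peak in any of the 4 lists, and 7 had RUNX1 peaks. Of 54 homeobox genes of other families, 47 had H3K27me3 and 22 had RUNX1 peaks, and of 39 Hox genes 39 and 20. Homeobox genes with known roles in blood were also counted. Of 12 such genes, among them Hhex and Meis1, 6 had H3K27me3 and 12 had RUNX1 peaks. Of 12 regulators of blood formation, 5 had H3K27me3 and 10 had RUNX1 peaks, with 9 and 10 RUNX1 summits at Runx1 itself and 3 and 4 at Spi1, and 0 H3K27me3 summits at either. Runx1 and Spi1 do not stand for the whole list. Both kinds of peak lay at 4 of the 12, and not all of the 12 had a RUNX1 peak. Genes of the Polycomb complexes (31) had H3K27me3 at 8 and RUNX1 at 30, and ribosomal protein genes (83) at 5 and 80. The lists differ in window length. The median was 18.1 kb for the 49, 80.0 kb for the blood-linked homeobox genes, 38.6 kb for the blood regulators and 38.3 kb for the Polycomb genes. It was 14.4 kb for the further family members, 17.2 kb for the other homeobox families, 13.5 kb for Hox and 13.4 kb for ribosomal protein genes. The part of window length in these counts was not tested. These lists were chosen with results known, and the differences between them are given as counts. The labelled cell type could not be checked by expression, as these files hold peaks alone.

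**Figure D5:**
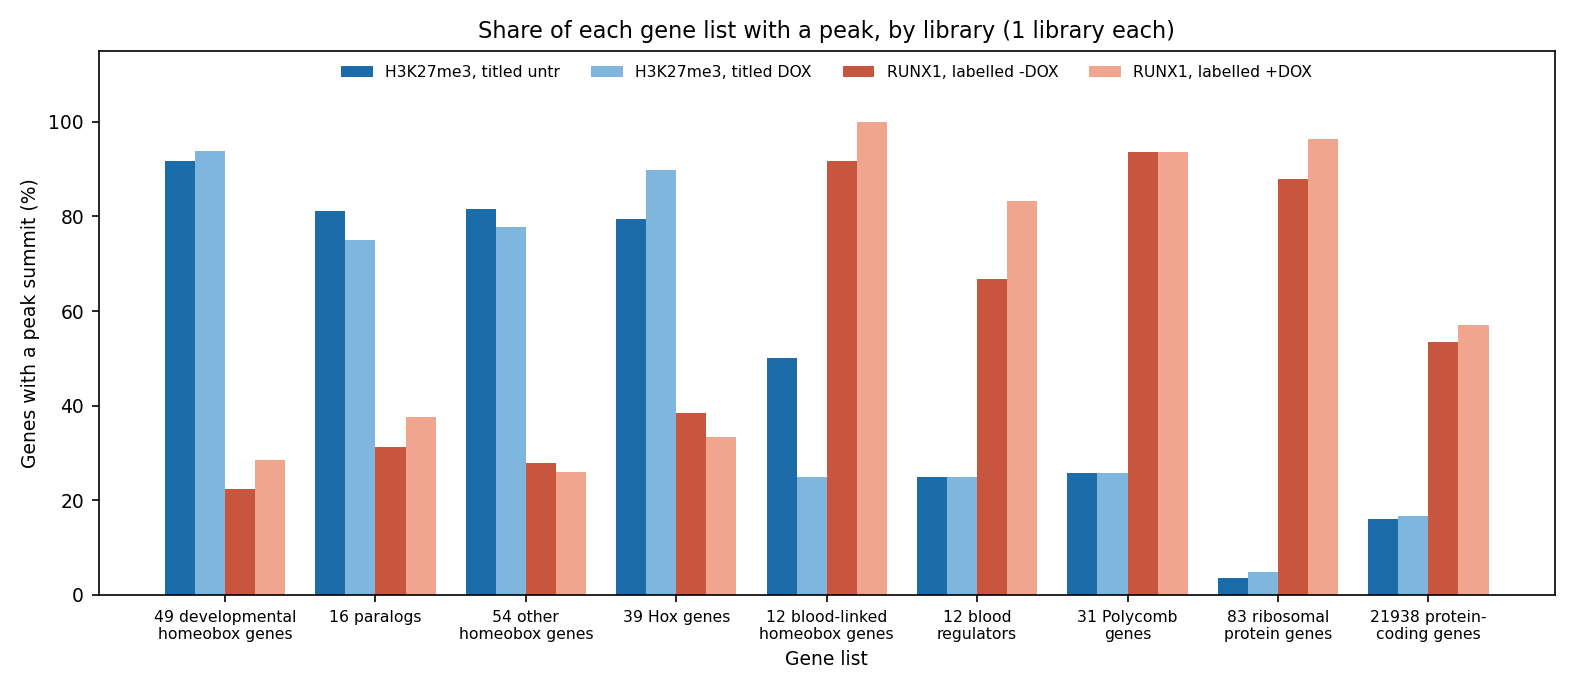
Share of each gene list with a peak summit in the gene body or within 5 kb (vertical, percent) in the 4 libraries (bars, 1 library each, so no error bars). The 49 genes stand at 91.8% and 93.9% for H3K27me3 and at 22.4% and 28.6% for RUNX1, where all protein-coding genes stand at 16.1%, 16.7%, 53.5% and 57.1%.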

How the data were processed

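ChIP-seq peak lists of 4 libraries were used. According to the study's methods and the submitters' processing notes, cells were crosslinked with DSG and formaldehyde, and the authors aligned reads to mm10 with Bowtie2 (2.2.9 in the notes) and called peaks per library with MACS2 (2.1.1 in the notes) at a q-value threshold of 0.05. The text gives another Bowtie2 version, names no input control and does not describe the H3K27me3 libraries. The values deposited with a peak are a ratio (fold enrichment over local background), the -log10 of a p-value and of a q-value, and the summit position. The methods name later filters against a blacklist, a repeat list and DNase1 data. Whether the lists used here had passed them is not stated, and 5.60% and 5.80% of their RUNX1 peaks lie mostly in soft-masked repeats. Depth is unknown. Fold and -log10 q were ranked or set against medians within a list, and values of different lists are given side by side with no direction drawn.

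Peaks on assembled chromosomes were assigned to protein-coding genes of GENCODE vM21 by summit (gene body or within 5 kb). The nearest annotated start, CpG content (1000 bp at the start of the gene record), soft-masking and the motif were read from RefSeq GRCm38.p6 in Python 3.11.15 with pandas 2.3.3, and figures were drawn with matplotlib 3.10.9. The assignment was tested on simulated peaks and recovered the planted genes. With 1 library per antibody and label no test was made. All 49 genes are accounted for. Values are given for the 3 with the most H3K27me3 summits, the 3 with the highest fold in each list, those without a peak or with a peak in 1 list, and up to 8 with RUNX1 peaks. The members and lists were chosen with earlier results of these data known. A few genes of the reference lists are not reported here. Alternatives changed the window, the assignment, the q-value, the list length, repeats, the background and the RUNX1 labels.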

Additional observations from a re-analysis of the deposited data

How the results depend on the processing

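With 1 library each, no replicate could be left out. No paired analysis was possible because the labels carry no replicate numbers and no result comes from a test. H3K27me3 calls kept within 1.5 times of their count when the window, the assignment, repeats or the list length changed, and fell with stricter peaks. At a -log10 q of at least 5, H3K27me3 (titled DOX) was left at 27 genes (background 11.0%), RUNX1 at 7 (labelled -DOX, 46.7%) and 7 (labelled +DOX, 50.7%), both kinds at 8 (8.74%) and overlap at 4. At 10 or more, H3K27me3 was left at 11 (titled untr, background 5.57%) and 6 (titled DOX, 3.77%), RUNX1 at 1 (labelled -DOX, 29.5%) and 2 (labelled +DOX, 34.5%), and both kinds at 1 (2.89%). Among the 5000 peaks with the highest -log10 q of each list, H3K27me3 was at 39 (13.9%) and 37 genes (13.1%), RUNX1 at 0 and 0 (background 20.2% in both) and both kinds at 0 (3.89%). This cut keeps most of each H3K27me3 list and a minority of each RUNX1 list, so it is milder for H3K27me3. In the gene body alone, RUNX1 (labelled -DOX) was at 6 (39.7%) and both kinds at 11 (9.07%). Within 1500 bp of a start, RUNX1 (labelled +DOX) was at 7 (46.9%) and both kinds at 9 (6.10%). The backgrounds of H3K27me3 (untr, DOX) and RUNX1 (-DOX, +DOX) were 15.0%, 15.6%, 55.3% and 59.0% over genes in the same range of window length, 21.4%, 21.6%, 81.8% and 85.5% over genes with a CpG ratio of at least 0.6, and 18.5%, 18.1%, 70.5% and 74.5% over genes weighted to window length and CpG class. The last of these, and leaving out H3K27me3 peaks under RUNX1 peaks, were added after the data were seen. Ranked by fold in place of -log10 q, the median best percentile of marked genes was 25.6 (untr) and 25.3 (DOX). With the start of the gene record alone, 45.8% and 48.4% of H3K27me3 summits lay within 1500 bp.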
